A study of Mus musculus with 4 samples.

Results

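The 10 genes described here mark endothelial identity and leukocyte adhesion in the mouse heart. They are the SoxF transcription factors Sox7, Sox17 and Sox18, the adhesion molecules Sele, Selp, Vcam1 and Icam1, and the junction genes Pecam1, Cdh5 and Cldn5. They were taken by symbol from the 23282 genes of each heart library, and each symbol stood for 1 value per library. The genes had been chosen with their values in these libraries known, so their levels are given as a description, without a test.

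Endothelial cells line the blood vessels, and the heart muscle is densely supplied with capillaries. SoxF transcription factors share a DNA-binding HMG box and act in the formation of arteries, veins and lymphatic vessels. At sites of inflammation, the selectins on endothelial cells catch rolling leukocytes, and VCAM-1 and ICAM-1 then bind leukocyte integrins and hold the cells. VE-cadherin, claudin-5 and PECAM-1 sit at the contacts between neighbouring endothelial cells and keep the vessel wall closed.

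The hearts came from male CDF1 mice, for which the labels give postnatal day 28 as the age. The paper gives this as the age at purchase, and the hearts were taken later, at the end of the experiment. The normal control E(−)T(−) had neither exercise nor tumor, and the normal exercise group E(+)T(−) ran on a motorized treadmill at high intensity. The cancer control E(−)T(+) received CT26 murine colorectal carcinoma cells through the tail vein and did not run, and the cancer exercise group E(+)T(+) had both. Cells given by this route spread through the body. The study kept 10 mice per group, of which the heart data hold 1 library per group, and whether a library came from 1 mouse or from several is not given in the sources used here. There was thus no replicate, and a difference between libraries cannot be told apart from a difference between mice.

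QuantSeq libraries, which read the 3′ end of mRNA, were sequenced. Values are log2 values of the normalized read count plus a pseudocount of 1, and the whole reads behind them could be recovered. Recovered totals ran from 6595456 reads in normal control to 11545987 in cancer exercise. The share of globin reads was 37.3% in cancer exercise and between 7.86% and 8.76% elsewhere. Each of 10 cardiomyocyte markers had at least 3748 reads in all 4 libraries, and none differed 2-fold in any comparison. These markers do not show how much other tissue was present, and lung and fat genes are described below. A gene was called when its normalized read count reached 4 in at least 1 of the 2 libraries and the fold change reached 2. The paper also combines a fold change with a minimum count, but does not state whether that minimum is linear or a log2 value. With a minimum of 16, close to a log2 value of 4, the exercise comparisons had 782 and 1628 called genes without and with a tumor in place of 1711 and 2790, and none of the 10 genes was among them. The numbers of altered heart genes that the paper reports for the exercise comparisons lie closer to those under the higher minimum. The calls given here may thus rest on a looser rule than the paper's. Because 1 is added before the log2 is taken, fold changes of low genes are understated. Each is given with the 95% Clopper-Pearson interval of the ratio of reads, which covers no more than counting error. This interval and the Poisson intervals of single libraries can be too narrow even for that, since reads without molecular identifiers are not independent molecules. In bulk tissue, fewer endothelial cells and less mRNA per cell cannot be told apart.

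The largest number of calls among the 10 genes was seen for the cancer effect without exercise, E(−)T(+) vs. E(−)T(−). Selp, Icam1 and Sox17 were called higher and Sox7, Cdh5 and Sele lower, while Vcam1, Pecam1, Cldn5 and Sox18 were not called. Of all 14317 genes tested in this comparison, 27.6% were called, 14.6% higher and 13.1% lower, and the share among the 10 genes is a description because they were chosen on these values. Over the 10 genes, the log2 fold changes had a median of 0.05, against −0.01 for all genes tested.

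The cancer effect in exercised mice, E(+)T(+) vs. E(+)T(−), gave 5 calls among the 9 genes that reached the minimum count. Sox17, Selp, Sele and Cldn5 were called higher and Sox7 was called lower, and Sox18 stayed under the minimum. Among all 14289 genes tested, 23.0% were called, 12.0% higher and 11.1% lower. The median log2 fold change was 0.90 for the 9 genes and −0.01 for all genes tested.

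The exercise comparisons gave 1 call each, in both cases Sele, a gene with few reads. Sele was called lower for E(+)T(−) vs. E(−)T(−), where 12.3% of 13937 genes were called, 5.88% higher and 6.40% lower. It was called higher for E(+)T(+) vs. E(−)T(+), where 19.4% of 14363 genes were called, 9.39% higher and 10.0% lower. The medians of the genes that reached the minimum were −0.47 over 10 genes without a tumor and 0.43 over 9 genes with a tumor, against 0.00 and −0.01 for all genes. The comparisons share libraries with each other, so their values are set side by side and are not independent.

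**Figure D1:**
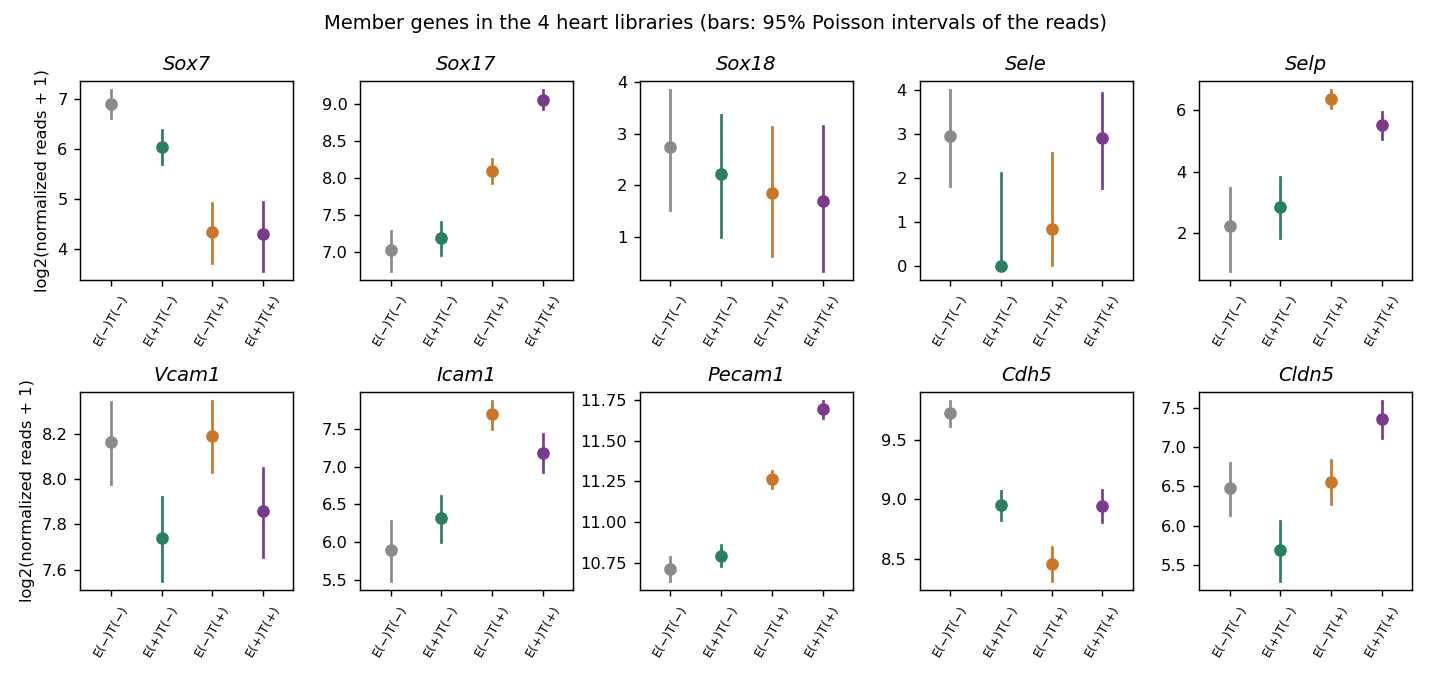
Log2(normalized read count + 1) of the 10 genes (y axis, a separate range for each gene) in the 4 heart libraries (x axis). Points are the deposited values and bars are 95% Poisson intervals of the reads. Sox7 was at 4.34 or lower in both cancer libraries and at 6.05 or higher in both tumor-free libraries, and Selp was at 5.52 or higher in both cancer libraries and at 2.84 or lower in both others.

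Among the transcription factors, Sox7 and Sox17 differed in opposite directions between cancer-bearing and tumor-free mice. Near-identical genes can share reads, so their reference transcripts (GENCODE M21, GRCm38) were compared first. The longest run of bases shared anywhere between the transcripts was 29 for Sox17 and Sox18, 22 for Sox7 and Sox17 and 20 for Sox7 and Sox18.

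Sox7 (chr14:63943673-63950732, plus strand) had a log2 value of 6.90 in normal control (104 reads), 6.05 in normal exercise (72 reads), 4.34 in cancer control (22 reads) and 4.30 in cancer exercise (17 reads). Both cancer libraries lay below both tumor-free libraries, and the Poisson intervals of the former, which reached 29.8 normalized reads at most, did not meet those of the latter, which began at 51.0. Sox7 was 5.92-fold lower in E(−)T(+) than in E(−)T(−), a log2 fold change of −2.57 (interval −3.35 to −1.95). With exercise in both groups it was 3.35-fold lower, with a log2 fold change of −1.74 (−2.66 to −1.03). Exercise without a tumor gave −0.86 (−1.33 to −0.42), which was not called, and exercise with a tumor gave −0.03 (−1.07 to 0.92).

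Sox17 (chr1:4490931-4497354, minus strand), which acts in arterial endothelium, had log2 values of 7.03 in normal control (113 reads), 7.19 in normal exercise (160 reads), 8.11 in cancer control (311 reads) and 9.06 in cancer exercise (489 reads). The tumor-free libraries had overlapping intervals, and both cancer libraries lay above them and apart from each other. The log2 fold change was 1.07 (0.77 to 1.41) for E(−)T(+) vs. E(−)T(−), a 2.11-fold higher level close to the threshold. The call was lost at 0.92 when libraries were scaled to their totals, at 0.93 when genes over 1% of a library were left out of the scaling, and at 0.97 when reads were subsampled. This call thus depended on scaling and depth. With exercise in both groups, Sox17 was 3.68-fold higher (log2 1.88, interval 1.63 to 2.15). Exercise gave 0.16 (−0.20 to 0.52) without a tumor and 0.96 (0.76 to 1.17) with one, the second just under the threshold and past it, at 1.12, when reads were subsampled.

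Sox18 (chr2:181669836-181671640, minus strand), a factor of vascular and lymphatic development, had 5, 4, 3 and 2 reads in normal control, in normal exercise, in cancer control and in cancer exercise. Its log2 values were 2.73, 2.21, 1.85 and 1.69, and a difference was not detectable at this depth. The interval for E(−)T(+) vs. E(−)T(−), for example, ran from −3.80 to 1.25 around a log2 fold change of −0.88.

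Of the adhesion molecules, Selp and Icam1 were higher in cancer-bearing mice and Vcam1 was close to level, while Sele was near the limit of detection. Sele and Selp both lie on chromosome 1, and the longest run shared by their transcripts was 15 bases. NF-κB, a transcription factor switched on by inflammatory cytokines, is known to drive several of these genes. The 250 bases before the start of transcription were available for Sele, Selp, Icam1 and Cldn5 from RefSeq (GRCm38.p6). They were searched on both strands for GGNNNTTCC and GGGNNTTNC, letters that resemble an NF-κB site. Both sets of letters can match at 1 place. The first was found in 15.7% of the 32851 windows of the whole table, the second in 13.0% and either of them in 22.0%. Selp and Icam1 are shown because they had the highest fold changes of the adhesion molecules for E(−)T(+) vs. E(−)T(−), and capitals mark the matches to GGNNNTTCC, those in Selp and at the second place in Icam1 being on the minus strand.
Selp, chr1:164115014-164115263, plus strand: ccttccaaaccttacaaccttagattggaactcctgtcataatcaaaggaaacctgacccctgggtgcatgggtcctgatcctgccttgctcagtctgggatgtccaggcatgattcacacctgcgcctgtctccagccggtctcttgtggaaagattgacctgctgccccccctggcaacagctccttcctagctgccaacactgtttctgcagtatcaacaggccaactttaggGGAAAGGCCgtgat
Icam1, chr9:21015690-21015939, plus strand: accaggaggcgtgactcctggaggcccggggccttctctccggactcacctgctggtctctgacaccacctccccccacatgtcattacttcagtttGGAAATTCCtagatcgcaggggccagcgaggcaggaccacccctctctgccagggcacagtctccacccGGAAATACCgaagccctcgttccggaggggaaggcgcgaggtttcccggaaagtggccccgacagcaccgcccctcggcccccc
The Selp match lies 14 to 6 bases before the start, and those of Icam1 lie 153 to 145 and 84 to 76 bases before it, the former matching on both strands. Sele held 1 match, 145 to 137 bases before its start, and Cldn5 held none. GGGNNTTNC was found in none of the 4 windows. A match of letters is a description and does not show that a factor binds there.

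Selp (chr1:164115264-164150026, plus strand) encodes P-selectin, which endothelial cells and platelets store in granules and bring to the surface on activation. Its log2 value was 2.23 in normal control (3 reads), 2.84 in normal exercise (7 reads), 6.38 in cancer control (93 reads) and 5.52 in cancer exercise (41 reads). Both cancer libraries lay above both tumor-free libraries, and the intervals did not overlap. The log2 fold change for E(−)T(+) vs. E(−)T(−) was 4.16 (2.98 to 6.88), or 17.8-fold, and that for E(+)T(+) vs. E(+)T(−) was 2.67 (1.65 to 4.23), or 6.39-fold. Exercise gave 0.61 (−1.25 to 3.46) without a tumor and −0.87 (−1.44 to −0.33) with one. The second was called at −1.43 when scaled to the library totals and at −1.02 relative to the median of other endothelial surface genes. Scaling to the totals moved all genes, and relative to their median Selp stood at −0.84.

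Platelet genes were higher along with Selp in the cancer control, but did not all follow it with exercise in cancer-bearing mice. Of 12 platelet markers, 10 reached the minimum count for E(−)T(+) vs. E(−)T(−) and 6 were called higher and none lower, with a median log2 fold change of 1.73. Of all genes, 14.6% were called higher and 13.1% lower there. Pf4, which encodes platelet factor 4, had 558, 1215, 3175 and 1604 reads in normal control, in normal exercise, in cancer control and in cancer exercise. The summed level of the list was 949, 1751, 3554 and 2771 normalized reads in the same order, and Gp6 was at 0 reads in 3 libraries. In E(+)T(−) 5 platelet markers were called higher than in E(−)T(−), as were 5.88% of all genes, while Selp had 7 and 3 reads. For E(+)T(+) vs. E(−)T(+), where Selp was at −0.87, platelet markers went in both directions. Ppbp was called higher at 1.18 and Pf4 was at −0.675. The long non-coding RNA Gm16548, on the opposite strand over the last exon of Selp, had 0, 4, 31 and 14 reads, and its reads cannot be told apart from those of Selp, since use of the strand in counting is not given in the sources used here. The part of platelets in the Selp values was not tested.

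Sele (chr1:164048234-164057677, plus strand) encodes E-selectin, which is made by endothelium under inflammatory stimulation. It had 6 reads in normal control, 0 in normal exercise, 1 in cancer control and 6 in cancer exercise, with log2 values of 2.95, 0.00, 0.85 and 2.90. The libraries fell into a higher and a lower pair that followed neither exercise nor the tumor. With the library at 0 reads set to a floor of 3 reads, Sele was 2.53-fold lower in E(+)T(−) than in E(−)T(−). On the same floor it was 2.42-fold higher in E(+)T(+) than in E(+)T(−). Counting error allowed smaller differences, since the intervals of these log2 fold changes reached −0.58 and 0.51 on the side of 0. The ratio of E(−)T(−) to E(−)T(+) was 4.29-fold, with a log2 fold change of −2.10 whose interval, −8.49 to 0.08, contained 0. That of E(+)T(+) to E(−)T(+) was 4.15-fold, with a log2 fold change of 2.05 whose interval, −0.15 to 8.42, contained 0 as well. With a minimum count of 16, Sele was not tested in any comparison.

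Icam1 (chr9:21015985-21028817, plus strand) encodes ICAM-1, the ligand of the leukocyte integrins LFA-1 and Mac-1. Its log2 values were 5.90 in normal control (51 reads), 6.31 in normal exercise (87 reads), 7.69 in cancer control (233 reads) and 7.18 in cancer exercise (132 reads). Both cancer libraries lay above both tumor-free libraries, and no interval of the former met one of the latter. The antisense gene Gm47079 overlaps the last exon of Icam1 and was not analysed here. Icam1 was 3.47-fold higher in E(−)T(+) than in normal control (log2 1.79, interval 1.37 to 2.28). The difference with exercise in both groups was 0.87 (0.47 to 1.28) and was not called. Exercise gave 0.41 (−0.09 to 0.96) without a tumor and −0.51 (−0.83 to −0.20) with one, and the latter was called at −1.09 when scaled to the library totals. Relative to the median of all genes under that scaling, Icam1 stood at −0.50.

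Vcam1 (chr3:116109949-116129688, minus strand) encodes VCAM-1, the ligand of the integrin VLA-4. Its log2 values were 8.16 in normal control (249 reads), 7.74 in normal exercise (235 reads), 8.19 in cancer control (330 reads) and 7.86 in cancer exercise (211 reads). The unexercised libraries were close to each other and above the exercised ones, whose intervals they met in part. The cancer effect was 0.03 (−0.21 to 0.27) without exercise and 0.12 (−0.16 to 0.39) with it, so that at this depth no difference was detectable for either. Exercise gave −0.42 (−0.69 to −0.16) without a tumor and −0.33 (−0.59 to −0.08) with one, intervals below 0 that stayed under 2-fold.

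**Figure D2:**
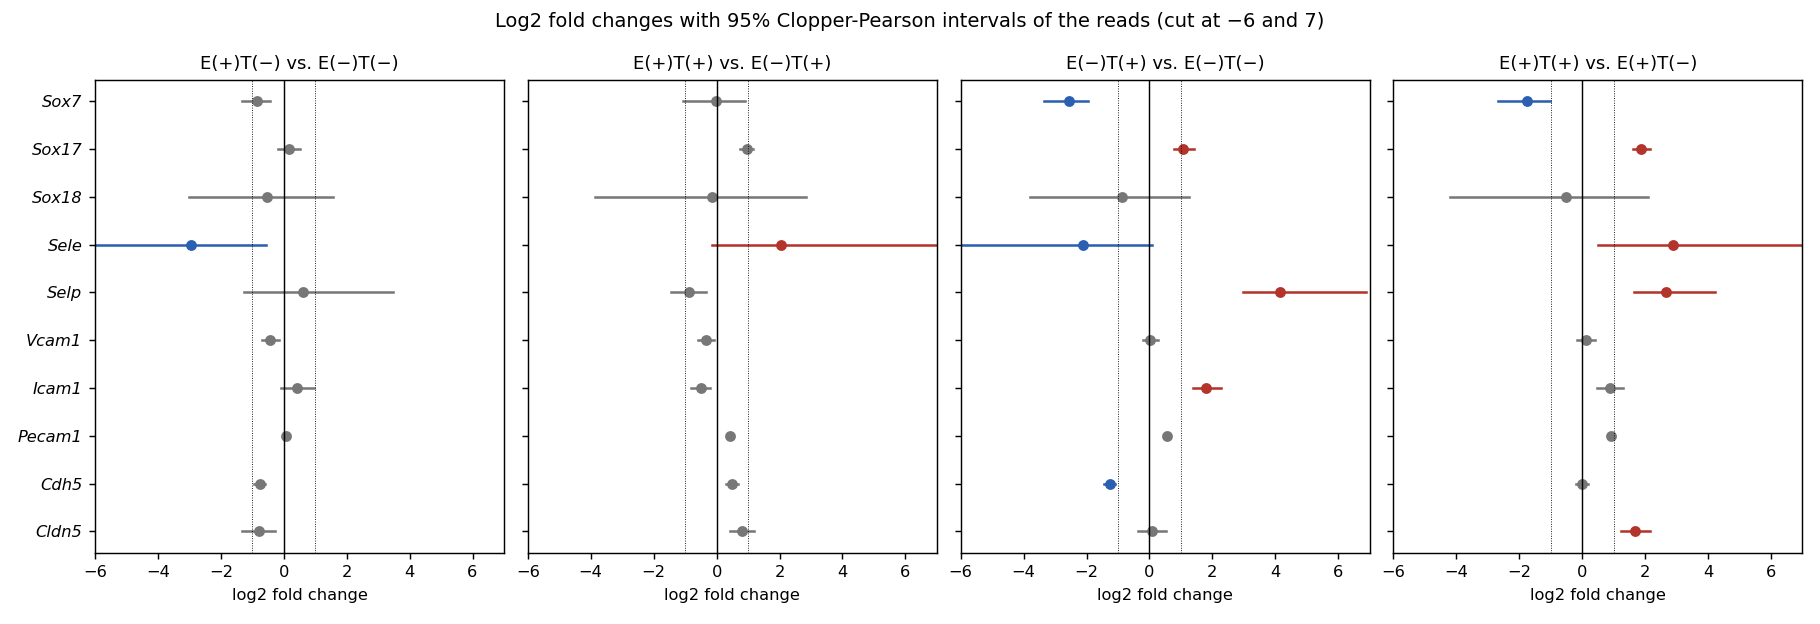
Log2 fold changes (x axis) of the 10 genes (y axis) in the 4 comparisons, with 95% Clopper-Pearson intervals of the ratio of reads as bars, drawn only between −6 and 7. Red marks genes called higher, blue genes called lower and grey genes not called, and dotted lines mark a 2-fold difference. Sox7 was called lower and Sox17 and Selp higher in both cancer comparisons, and Sele was the only call in each exercise comparison.

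Among the junction genes, Cdh5 was lower in cancer-bearing mice without exercise, Cldn5 was highest in E(+)T(+), and Pecam1 was higher in both cancer libraries. Cdh5 (chr8:104101625-104144511, plus strand) encodes VE-cadherin, the adhesion protein of endothelial adherens junctions. Its log2 values were 9.72 in normal control (736 reads), 8.95 in normal exercise (547 reads), 8.46 in cancer control (398 reads) and 8.95 in cancer exercise (450 reads). The normal control lay above the other libraries, the cancer control below them, and both exercised libraries were level with each other. Cdh5 was 2.40-fold lower in E(−)T(+) than in normal control (log2 −1.26, interval −1.44 to −1.09), and relative to the median of other endothelial surface genes the value was −0.96 and no longer called. Exercise gave −0.77 (−0.93 to −0.61) without a tumor and 0.49 (0.29 to 0.69) with one. These intervals lie on opposite sides of 0, but neither difference was called, and the difference between them was not tested. The cancer effect with exercise was −0.01 (−0.19 to 0.17).

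Cldn5 (chr16:18776847-18778262, plus strand, a single exon) encodes claudin-5 of endothelial tight junctions. Its log2 values were 6.48 in normal control (77 reads), 5.69 in normal exercise (56 reads), 6.56 in cancer control (106 reads) and 7.36 in cancer exercise (149 reads). The unexercised libraries overlapped, the normal exercise library was lowest and the cancer exercise library highest. Cldn5 was 3.18-fold higher in E(+)T(+) than in normal exercise (log2 1.67, interval 1.23 to 2.16), and at 0.95 this was no longer called when scaled to the library totals. Exercise gave −0.79 (−1.32 to −0.29) without a tumor and 0.79 (0.43 to 1.17) with one, and the cancer effect without exercise was 0.08 (−0.35 to 0.53).

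Pecam1 (chr11:106654217-106750628, minus strand) encodes PECAM-1 (CD31), found on endothelium, platelets and leukocytes. Its log2 values were 10.71 in normal control (1463 reads), 10.79 in normal exercise (1961 reads), 11.26 in cancer control (2783 reads) and 11.69 in cancer exercise (3027 reads). Both cancer libraries lay above both tumor-free libraries, and the interval of E(+)T(+) lay above that of E(−)T(+). The cancer effect was 0.55 (0.46 to 0.64) without exercise and 0.90 (0.82 to 0.98) with it, neither of which reached 2-fold. Exercise gave 0.08 (−0.02 to 0.18) without a tumor and 0.43 (0.36 to 0.51) with one.

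Scaling to the library totals moved both comparisons with E(+)T(+), the library rich in globin reads. The median of all genes went to −0.59 for E(+)T(+) vs. E(−)T(+). Pecam1 and Cdh5 turned to −0.16 and −0.10, Sox17 and Cldn5 went to 0.38 and 0.21, and Sox7 and Vcam1 to −0.61 and −0.92. Relative to that median, Pecam1 and Cdh5 stood at 0.43 and 0.49. In E(+)T(+) vs. E(+)T(−), the median of all genes went to −0.72, and Sox17, Icam1 and Pecam1 were at 1.16, 0.15 and 0.18 while Vcam1 turned to −0.60 and Cdh5 was at −0.73. Relative to that median, Sox17, Icam1 and Pecam1 stood at 1.88, 0.87 and 0.90 and Vcam1 at 0.12. In the cancer comparison without exercise, Vcam1 and Cldn5 turned to −0.12 and −0.07.

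Lung epithelial genes were highest in E(+)T(+), as were Cldn5, Sox17 and Pecam1. Fat genes were high in sum in both E(−)T(−) and E(+)T(+), the libraries in which Sele had 6 reads. All 7 lung epithelial markers were called higher for E(+)T(+) vs. E(+)T(−), with a median log2 fold change of 3.41, and 4 were called higher for E(+)T(+) vs. E(−)T(+). Of all genes, 12.0% and 9.39% were called higher in these comparisons. The summed level of the list was 628, 166, 576 and 1887 normalized reads in normal control, in normal exercise, in cancer control and in cancer exercise. Sftpc, which encodes surfactant protein C, had 58, 38, 87 and 292 reads, and Sftpd was at 0 reads in E(+)T(−). Lung is rich in endothelium, and the share of lung tissue in the values of the 10 genes was not tested. The 8 adipocyte markers summed to 2560, 629, 447 and 2749 normalized reads, and all 7 that reached the minimum for E(+)T(+) vs. E(−)T(+) were called higher. Lep was at 0 reads in all libraries but E(−)T(−). The part of adipose tissue was not tested either.

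**Figure D3:**
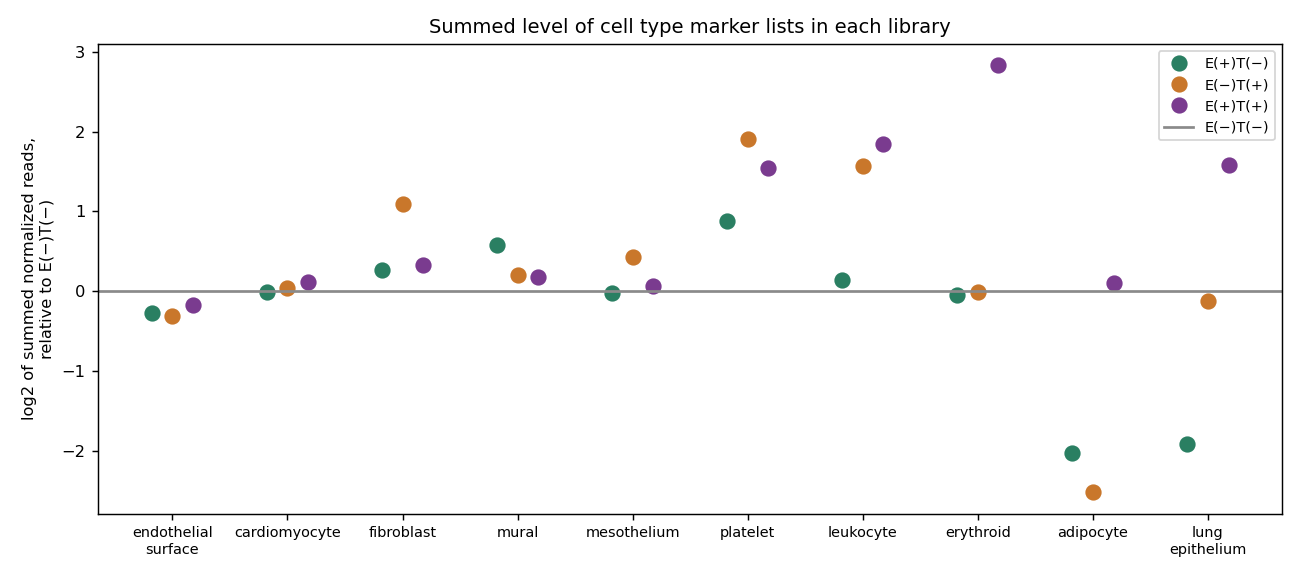
Summed normalized reads of marker lists of each cell type (x axis), as log2 relative to E(−)T(−) (y axis), in the other 3 libraries. Each point is the sum over 1 list in 1 library. Other endothelial surface genes and cardiomyocyte markers stayed within 0.31 of E(−)T(−), while the erythroid, lung epithelial, adipocyte, platelet, leukocyte and fibroblast lists were more than 1 away in at least 1 library.

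The lists of other genes are given by their counts, beside which stand the shares of all genes called above. These shares were 27.6% and 23.0% in the cancer comparisons without and with exercise. In the exercise comparisons they were 12.3% without a tumor and 19.4% with one. Of 27 other endothelial surface genes, 2 were called higher and 7 lower for E(−)T(+) vs. E(−)T(−), where 27.6% of all genes were called, with a median log2 fold change of −0.31, while the sum of the list was 19187, 15904, 15520 and 17074 normalized reads in normal control, in normal exercise, in cancer control and in cancer exercise. Kdr, the main receptor for VEGF on endothelium, had a log2 fold change of −1.89 (804 vs. 2296 reads). Plvap, a protein of the diaphragms of fenestrated and venous endothelium, was 1.76 higher (404 vs. 91 reads). Arhgef15 and Myct1 were at −1.55 and −1.43. In the exercised mice, 3 were called higher and none lower, namely Clec14a at 1.61, Egfl7 at 1.21 and Vwf, which encodes von Willebrand factor, at 1.09. Exercise gave 1 call lower without a tumor, Myct1 at −1.05, and 1 call higher with a tumor, Icam2 at 1.15. The medians were −0.30 and 0.15.

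Among 19 other endothelial transcription factors, 1 was called higher and 2 lower for E(−)T(+) vs. E(−)T(−), where 27.6% of all genes were called. Foxc1 was at 1.25, and Ets1 and Meox2 were at −1.65 and −1.34. In the exercised mice, Foxc1 and Tal1 were called higher, at 1.19 and 1.10, and Klf2, a factor induced by laminar flow, was called lower at −1.10. Exercise gave Foxc2 at 1.01 as the only call without a tumor. With a tumor, Hey1 was called higher at 1.25, and Gata2 and Klf2 were called lower at −1.18 and −1.08. The medians of the 4 comparisons lay between −0.17 and 0.04.

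Lists of vessel types, which share genes such as Kdr and Vwf with the lists above, had calls in both directions. Of all genes, 14.6% were called higher and 13.1% lower for E(−)T(+) vs. E(−)T(−), and the vessel lists are short. For E(−)T(+) vs. E(−)T(−), 5 of 10 capillary markers were called lower and none higher, with a median of −0.84, and Aqp7, a glycerol channel also made by adipocytes, had 19 vs. 140 reads. Of 9 arterial markers, 3 were called lower, among them the Notch ligand Dll4 at −1.95 (62 vs. 186 reads) and the receptor Notch4 at −1.10. The 1 called higher, Sema3g, had 12 vs. 0 reads and was named after its values were seen. Of 6 venous markers, Ackr1, a chemokine-binding protein of venules, was at 2.14 on 22 vs. 3 reads, Ephb4 was called higher at 1.04 and Nrp2 lower at −1.12. Of 7 lymphatic markers, 4 were called higher and none lower, with Lyve1 at 2.15 (1894 vs. 328 reads) and Mmrn1 at 1.56. Prox1 and Flt4 were not called, at 0.30 (−0.08 to 0.69) and 0.32 (−0.06 to 0.72), and Ccl21a went the other way at −0.52 (−0.78 to −0.27). The list thus did not differ as a whole, and which cells its called genes came from was not tested.

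With exercise in both groups, the cancer effect gave calls in each of the 4 lists. Of all genes, 12.0% were called higher and 11.1% lower there. Of the arterial markers, Dll4 and Jag1 were called lower at −2.45 and −1.08. Of the venous markers, Ackr1 and Vwf were called higher at 3.27 and 1.09, and Nrp2 lower at −1.70. Of the capillary markers, Gpihbp1, which carries lipoprotein lipase on capillaries, was called higher at 1.14 and Aqp7 lower at −1.34. Of the lymphatic markers, 3 were called higher and Ccl21a lower at −1.70. The exercise comparisons gave at most 3 calls in any of these 4 lists, and none in the arterial, venous and capillary lists without a tumor. Among all genes, 12.3% were called without a tumor and 19.4% with one.

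**Figure D4:**
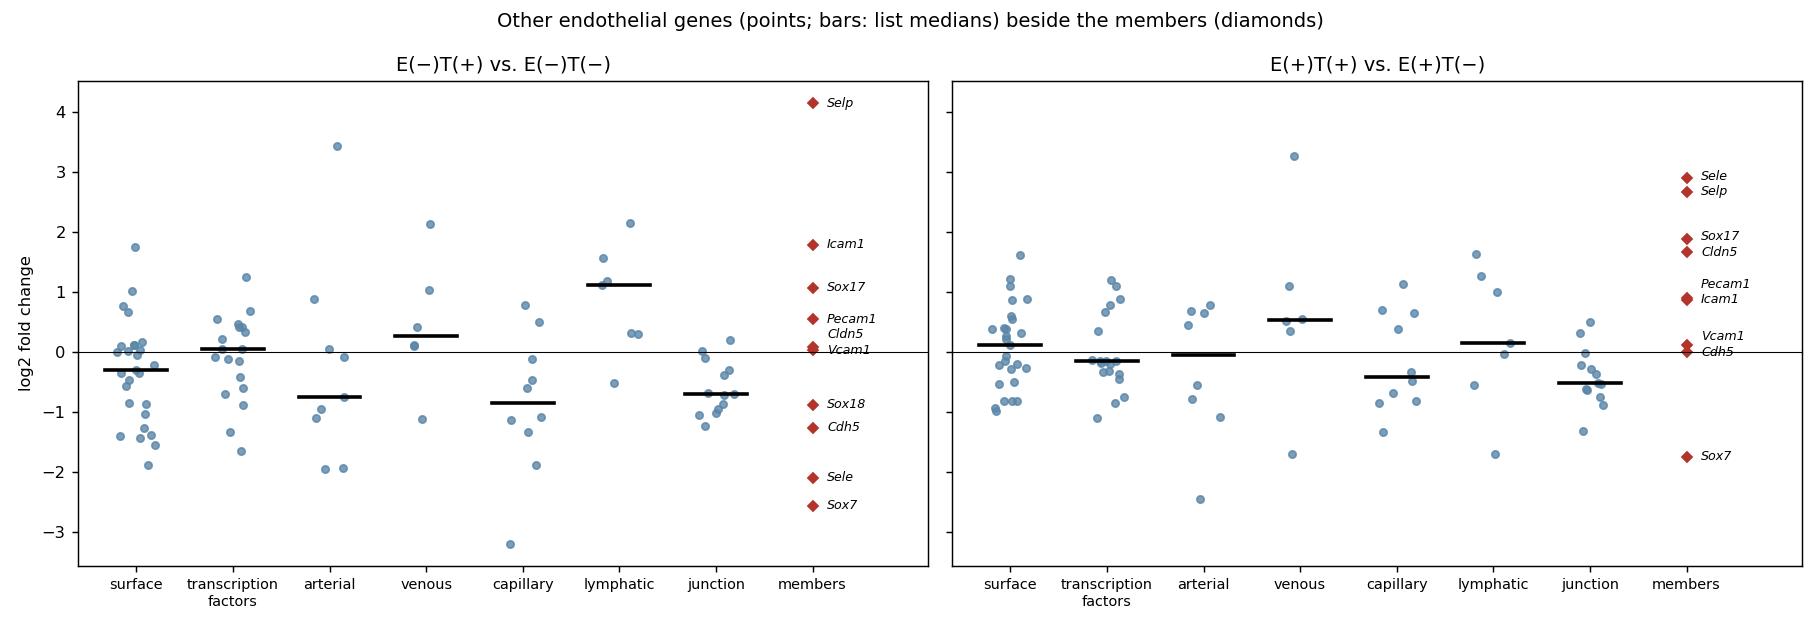
Log2 fold changes (y axis) of the genes of 7 lists of endothelial or junction genes that reached the minimum count (points, with the list median as a bar) and of the 10 genes (red diamonds) in both cancer comparisons. Points are spread sideways only to separate them, and Sox18 is left out on the right because it was under the minimum. The capillary list had a median of −0.84 and the lymphatic list one of 1.12 for E(−)T(+) vs. E(−)T(−), and Selp lay above every other gene shown there.

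Of 14 other junction genes with a value, 13 reached the minimum. In whole heart, reads of these genes can come from cells other than endothelium, and their source was not tested. Of all genes, 14.6% were called higher and 13.1% lower for E(−)T(+) vs. E(−)T(−). Tjp1, Mllt4 and Jam3, which link or form tight and adherens junctions, were called lower for E(−)T(+) vs. E(−)T(−), at −1.23, −1.05 and −1.02, and the list had a median of −0.69 with none called higher. Ctnnd1, the p120 catenin that binds cadherins such as VE-cadherin, was at −1.32 for E(+)T(+) vs. E(+)T(−) and was the only call. Neither exercise comparison gave a call in this list.

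The list of adhesion partners held genes of leukocytes and also of other cells, such as Icam2 of the endothelial surface list. Its members Itgam and Itgb2 encode the subunits of the ICAM-1 receptor Mac-1. They were at 2.85 and 2.40 for E(−)T(+) vs. E(−)T(−), on 168 vs. 17 and 129 vs. 18 reads. They were at −1.64 and −1.63 for E(+)T(+) vs. E(−)T(+). Of the 16 partners that reached the minimum in the former comparison, 3 were called higher and 1 lower, the latter being Icam2 at −1.27. This count lies near the 27.6% of all genes called there and is not read as a difference of the list. With exercise in both groups, Spn was called higher at 1.86 (20 vs. 6 reads) and Itgb7 at 1.02 (21 vs. 12 reads). The interval of Itgb7, −0.01 to 2.24, contained 0. Exercise without a tumor gave 1 partner called higher and 2 lower, where 12.3% of all genes were called.

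Leukocyte markers themselves were called higher in 5 of 13 and lower in 2 for E(−)T(+) vs. E(−)T(−). Of all genes, 14.6% were called higher and 13.1% lower there. The summed level of the markers was 1886, 2087, 5616 and 6805 normalized reads in normal control, in normal exercise, in cancer control and in cancer exercise. S100a8 and S100a9, abundant in neutrophils, were at 4.82 and 4.55, and the macrophage marker Cd68 was at 1.86. In E(+)T(+) against E(−)T(+), Cd68 and Lyz2 were at −1.65 and −1.56 while S100a8 was at 1.06. Leukocytes carry ICAM-1 and PECAM-1, and their part in the Icam1 and Pecam1 values was not tested.

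Of 15 known NF-κB targets that reached the minimum, 7 were called higher and 2 lower for E(−)T(+) vs. E(−)T(−), with a median of 0.77. Of all genes, 14.6% were called higher and 13.1% lower in this comparison. Nfkbia, which encodes the inhibitor IκBα, was at 1.68 (6427 vs. 1539 reads), and the chemokine genes Ccl2 and Cxcl1 were at 2.99 and 1.56, while Irf1 was at −1.45. The cancer effect with exercise had 7 called higher and 3 lower, with Cxcl2 at 265 vs. 0 reads, Cxcl1 at 3.19 and Relb at −1.58. Among all genes, 12.0% were called higher and 11.1% lower there. Exercise with a tumor gave 3 called higher and 2 lower, and exercise without one gave 1 called lower, Cxcl2, on 0 vs. 4 reads. The shares of all genes called were 19.4% with a tumor and 12.3% without one.

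The genes with the most similar pattern were sought among 11445 other genes by the root mean squared difference of 3 log2 fold changes against E(−)T(−). Over the SoxF and junction genes, the median was −0.65 in normal exercise, −0.40 in cancer control and 0.05 in cancer exercise, and the nearest genes were Trpm7, with a difference of 0.07, Sphk2, Rbm43, Sh3d21 and Plcb4. Over the adhesion molecules, the median was 0.00, 0.91 and 0.62, and the nearest genes were Mcl1, with a difference of 0.02, Rpl24, 2200002D01Rik, Rps14 and Utp14a. The likeness rests on 4 libraries that share 1 control, and the single genes behind each median differ from it.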

How the data were processed

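Total RNA from the heart was made into QuantSeq 3′ libraries, 1 for each of 4 groups. The authors aligned the reads with Bowtie2 (mm10 in the submitters' processing notes), counted them with Bedtools and normalized the counts by a quantile method of edgeR. The deposited values are log2 values, which equal log2(normalized read count + 1). Fold changes are differences of these values.

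To recover whole reads, relative library sizes and a common dispersion of 0.149 were fitted in Python, and all deposited values were given back within 0.000749. Of 25460 values of 5 to 99 reads, 100% lay within 0.1 of a whole read. On simulated reads for 17174 genes of E(−)T(+) vs. E(−)T(−), 200 of 200 genes with an 8-fold change were called in the right direction, 516 unchanged genes were called, and 97.7% of reads were recovered exactly.

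Tools from edgeR and DESeq2 were not run, because the deposited unit is not counts. Without replicates, no test was made and no p-value is given. Intervals are 95% Clopper-Pearson or Poisson intervals. The floor was 3 reads.

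The 10 genes and all lists of vessel types, junctions, adhesion partners, NF-κB targets and other cell types were chosen with earlier results of these data known. Of each list, up to 4 genes with the largest difference and a mean of at least 16 normalized reads are named, and a few of these are not reported here. Positions are from GENCODE M21 and promoters from RefSeq (GRCm38.p6), which held 4 of the 10 genes. Alternatives covered the normalization, minimum count, pseudocount, depth and genes over 1% of a library. The software was Python 3.11.15 with pandas 2.3.3, scipy 1.17.1 and numpy 2.4.6, and figures were drawn with matplotlib 3.10.9.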

Additional observations from a re-analysis of the deposited data

Results flagged for a closer look

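Cdh5 and Cldn5 differed in opposite directions between the exercise comparisons, with intervals on opposite sides of 0. The log2 fold change of Cdh5 was −0.769 for exercise without a tumor and 0.487 for exercise with a tumor, and that of Cldn5 was −0.794 and 0.793. With 1 library in each group, the difference between the comparisons was not tested. Neither gene reached a 2-fold difference in either comparison, and Cdh5 with a tumor turned to −0.10 when libraries were scaled to their totals. Sele was called in opposite directions, at −2.95 and 2.05, but the interval of the second contained 0. With groups of 1 library, no library could be checked against others of its group.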

How the results depend on the processing

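The call counts of both cancer comparisons, 6 and 5 of the 10 genes, ranged over the alternatives from 5 to 6 and from 4 to 5. With a minimum of 16 normalized reads, both exercise comparisons had 0 calls instead of 1, because Sele was no longer tested. For E(+)T(+) vs. E(−)T(+), scaling to the library totals gave 3 calls, which moved the median of all genes to −0.59 and their calls from 1349 higher and 1441 lower to 535 and 3604. Fold changes relative to the median of other endothelial surface genes, an alternative chosen after seeing the data, gave 2 calls there. For E(+)T(+) vs. E(+)T(−), the same scaling to totals moved the median to −0.72 and the calls from 1709 and 1580 to 796 and 4997. For E(−)T(+) vs. E(−)T(−), the median moved to −0.16, the calls moved from 2086 and 1869 to 1792 and 2469, and Sox18 was called at −1.03. Leaving genes over 1% of a library out of the scaling gave 1454 and 2070 for E(+)T(+) vs. E(+)T(−). Centring on the endothelial median gave 1299 higher and 578 lower, against 819 and 892, for E(+)T(−) vs. E(−)T(−), 2974 and 1245 for E(−)T(+) vs. E(−)T(−), and 1097 and 1821 for E(+)T(+) vs. E(−)T(+). With the minimum of 16, all-gene calls went from 1711 to 782 for E(+)T(−) vs. E(−)T(−), from 2790 to 1628 for E(+)T(+) vs. E(−)T(+) and from 3289 to 2102 for E(+)T(+) vs. E(+)T(−), and without a minimum the first was 2798. When reads were subsampled, E(+)T(+) vs. E(−)T(+) kept 1 call, but this was Sox17 in place of Sele. Depth limits Sele, Sox18 and, in tumor-free mice, Selp, which had 7 reads or fewer. No paired analysis was possible because each group had 1 library.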

Other observations

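Marker lists of other cell types of the heart held called genes as well. Of all genes tested, 27.6% were called for E(−)T(+) vs. E(−)T(−) and 19.4% for E(+)T(+) vs. E(−)T(+). The mural and mesothelial counts lie near these shares and are not read as a difference. For E(−)T(+) vs. E(−)T(−), 4 of 9 fibroblast markers were called higher and none lower, with a median log2 fold change of 0.99, and for E(+)T(+) vs. E(−)T(+), 5 were called lower and none higher, with a median of −1.12. Of 10 mural cell markers, 3 were called higher and none lower in the former comparison and 2 lower and none higher in the latter. Of 6 mesothelial markers, 1 was called higher and 1 lower in the former and 2 lower in the latter. All 10 erythroid markers with a value were called higher for E(+)T(+) vs. E(−)T(+), with a median of 3.08, and 1 was called higher for E(−)T(+) vs. E(−)T(−).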
